A study of Mus musculus with 20 samples.

Results

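Mouse imprinted genes outside the Dlk1-Dio3 locus, together with genes of the same imprinted clusters, were examined as a set of 51 genes. The rule lists them by gene symbol and uses no measured value, although it was drawn up with earlier results of these data known, and each of the 51 symbols matched 1 of the 55573 gene identifiers in the count table. The genes fell into 11 clusters and 7 loci with a single member. The libraries came from embryoid body (EB) cultures. EBs are aggregates of pluripotent cells that begin to form the embryonic germ layers once leukemia inhibitory factor (LIF) is withdrawn. They were made from 4 lines of induced pluripotent stem cells (iPSCs), WT#1-4 and WT#20D-17, labelled wild type, and Nox4-/- #5-8 and Nox4-/- #5-23, labelled as knockouts of Nox4, an NADPH oxidase that produces hydrogen peroxide. Each line gave 1 library on each of days 0, 3, 5, 7 and 14 of culture, 20 in all. The lines were compared to ask how loss of Nox4 affects EB differentiation. The study's text gives EB cultures as the RNA source on each day, while its figure on embryonic stem cells labels day 0 as the stem cells themselves. The day 0 libraries may therefore hold cells not yet aggregated. Per the study's methods, the iPSCs were derived by retroviral delivery of mouse Oct4, Sox2, Klf4 and c-Myc to embryonic fibroblasts and selection with puromycin, and a line was grown from 1 picked colony. Per the labels, the lines were kept on mitomycin-treated fibroblast feeders with LIF and aggregated in hanging drops before plating on gelatin. WT#20D-17 is not described in the study's text. Its place as wild type rests on the sample labels, and how it was derived, and whether it carries the same vectors, is not given in the sources used here. A line is 1 clone, so a difference between clones and an effect of the genotype cannot be told apart within a pair of lines. The study's methods name CF-1 embryos as the source of mouse embryonic fibroblasts, without saying which lines came from that stock. The strain of the lines is not otherwise given in the sources used here.

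An imprinted gene is transcribed mainly from the copy inherited from 1 parent, because a DNA methylation mark set in the egg or the sperm persists at a control region and silences the gene, or a neighbour, on that copy. Imprinted genes lie in clusters, where a control region often acts through a long noncoding RNA such as Airn or Kcnq1ot1. Many of them regulate fetal and placental growth, with paternally expressed genes such as Igf2 and Mest generally promoting it and maternally expressed genes such as Igf2r, Cdkn1c, Phlda2 and Grb10 generally restraining it. The counts do not separate the alleles, so the values below are total transcript levels and say nothing of the imprint itself.

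The libraries held between 20294968 and 27708023 counts, so that 3 counts, taken here as the floor, stood for 0.108 to 0.148 CPM, the count scaled to a common library size. Nox4 was at 0.149 to 0.874 CPM in WT#1-4 and 2.62 to 9.01 CPM in WT#20D-17, and at 0 to 0.0839 CPM in the knockout libraries. The 2 wild type lines differed in their cell type markers. The summed level of 8 visceral endoderm markers was 133 to 3858 CPM in WT#20D-17, at most 7.29 CPM in WT#1-4 and at most 0.210 CPM in the knockout lines, where 0 of the 8 markers exceeded 3 counts in any library. Summed fibroblast markers, 10 genes, reached 3012 CPM in WT#20D-17, against at most 149 CPM in WT#1-4 and 43.4 CPM in the knockout lines. On day 0 the order of the wild type lines was the reverse, with 26.9 CPM in WT#20D-17 and 149 CPM in WT#1-4. Prrx1 (0.574 to 4.17 against 16.0 to 29.9 CPM) and Twist1 were lower in WT#20D-17 than in WT#1-4 on every day. In the comparison of these lines given below, 5 of the 10 genes were higher in WT#20D-17 and 2 lower. Summed trophoblast markers, 10 genes, were at 71.1 to 353 CPM in WT#20D-17 and at most 16.8 CPM elsewhere. Most of the WT#20D-17 sum was Eomes (34.8 CPM) and Tfap2c (35.2 CPM) on day 0, Eomes (121 CPM) on day 3 and Hand1 (137 CPM) on day 5. Prl3d1 and Ctsq were at 0 there through day 7, and at 136 and 10.3 CPM on day 14. Gcm1 was at most at 0.732 CPM. The sum of 8 neural markers was 48.8 to 195 CPM in WT#20D-17 and 469 to 1379.6 CPM in the other lines. Most of it was Stmn2, with Map2 in WT#1-4, whereas Elavl3 was at 1.15 to 11.4 CPM in WT#20D-17 and at most 0.446 CPM elsewhere. The 8 pluripotency markers summed to 3758 CPM on day 0 and 97.2 CPM on day 14 in WT#20D-17, and to 1287 to 5800 CPM in the other lines. There most of the sum was Pou5f1 (Oct4), also a gene of the reprogramming vectors, at 1278 to 5760 CPM, while Nanog was at most at 1.03 CPM. In WT#20D-17 Nanog was at 383 CPM on day 0 and 8.40 CPM on day 14. Zfp42, another of the 8 markers, did not exceed 3 counts in any library of those 3 lines. The lines are labelled iPSCs, and the study reports alkaline phosphatase activity and colony staining for Oct4, Sox2 and a further marker in them. In bulk libraries like these, fewer cells of a type and less RNA per cell cannot be told apart, and the part of cell composition in the results below was not tested.

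Promoter sequences, 250 bases before and 50 after the start of a gene, were given for 42 of the 51 members in a RefSeq table of GRCm38.p6. The median number of CpG dinucleotides, the bases at which vertebrate DNA is methylated, was 15.5 in these windows and 7 in all 32851 promoters of the table. The hexamer TGCCGC, the core of the site bound by the imprint-keeping factor Zfp57 when methylated, was found on either strand in 10 of 42 member windows (23.8%) and in 11.6% of all. The hexamer itself holds a CpG, so its share is not independent of the CpG number, and an excess beyond that number was not tested. Cdkn1c, H19, Impact, Kcnq1, Klf14, Nap1l4, Peg10, Sgce and Zfp264 had no entry. The 250 bases before the start are printed for 4 members whose mean levels over days separated the lines in different ways. They are Slc38a4 and Nnat (high in WT#20D-17), Peg12 (low in WT#20D-17) and Airn (highest in WT#20D-17, lowest in Nox4-/- #5-23). The first 2 lie at chr15:97055957-97056206 on the minus strand and chr2:157559828-157560077 on the plus strand within the gene Blcap. The other 2 lie at chr7:62464511-62464760 on the minus strand and chr17:12741061-12741310 on the plus strand within the gene Igf2r. They run 5′ to 3′ with CpG dinucleotides in capitals, of which there are 3, 12, 8 and 2 in turn.
Slc38a4: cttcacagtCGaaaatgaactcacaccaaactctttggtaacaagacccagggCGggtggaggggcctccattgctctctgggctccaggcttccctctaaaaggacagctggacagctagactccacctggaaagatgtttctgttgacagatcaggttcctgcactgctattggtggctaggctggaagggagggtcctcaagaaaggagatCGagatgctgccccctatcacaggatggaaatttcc
Nnat: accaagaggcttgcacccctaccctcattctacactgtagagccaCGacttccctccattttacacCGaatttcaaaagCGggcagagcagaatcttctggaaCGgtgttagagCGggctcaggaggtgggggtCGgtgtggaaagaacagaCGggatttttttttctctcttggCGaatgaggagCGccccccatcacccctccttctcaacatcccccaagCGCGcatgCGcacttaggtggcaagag
Peg12: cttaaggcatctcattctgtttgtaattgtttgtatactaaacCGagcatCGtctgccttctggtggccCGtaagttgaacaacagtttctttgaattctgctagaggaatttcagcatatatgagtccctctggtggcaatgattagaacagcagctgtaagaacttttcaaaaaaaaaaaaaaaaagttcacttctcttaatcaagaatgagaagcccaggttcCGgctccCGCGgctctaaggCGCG
Airn: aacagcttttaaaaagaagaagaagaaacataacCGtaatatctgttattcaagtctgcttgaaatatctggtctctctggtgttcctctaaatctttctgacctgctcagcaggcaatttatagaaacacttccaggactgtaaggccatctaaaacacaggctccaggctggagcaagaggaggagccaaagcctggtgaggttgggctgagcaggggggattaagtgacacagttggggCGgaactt
CpG number thus differed among members with a wide range over lines, and these letters carry no information on methylation in the libraries.

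Levels are given as CPM after TMM scaling, which corrects the library totals for composition. In all, 49 of the 51 members reached 10 counts in at least 1 library. The exceptions were Slc22a2, an organic cation transporter of the Igf2r cluster, with at most 3 counts, and Zfp264, a transcribed pseudogene of the Peg3 cluster, with at most 8. Levels differed widely between lines. On the scale log2(mean CPM over days + 1), 29 of 51 members (56.9%) ranged over more than 1 unit among the 4 lines, against 21.3% of the 33860 genes with a nonzero count, and 10 of 51 (19.6%) ranged over more than 3 units, against 4.44%. Most genes of the table are hardly transcribed and cannot vary. Among the 47 members with a mean count of 10 or more, the shares were 61.7% and 21.3%, against 42.3% and 9.10% of all 16517 such genes. WT#20D-17 held the highest level of 25 of these 47 members (53.2%) and of 39.3% of the 16517 genes. Nox4-/- #5-23 held the lowest level of 21 of the 47, and of 23.1% of the genes. The median range was 1.34 units for 23 members listed as maternally expressed and 1.98 for 23 listed as paternally expressed. These labels are general background, and which copy was transcribed in these cells was not measured.

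**Figure D1:**
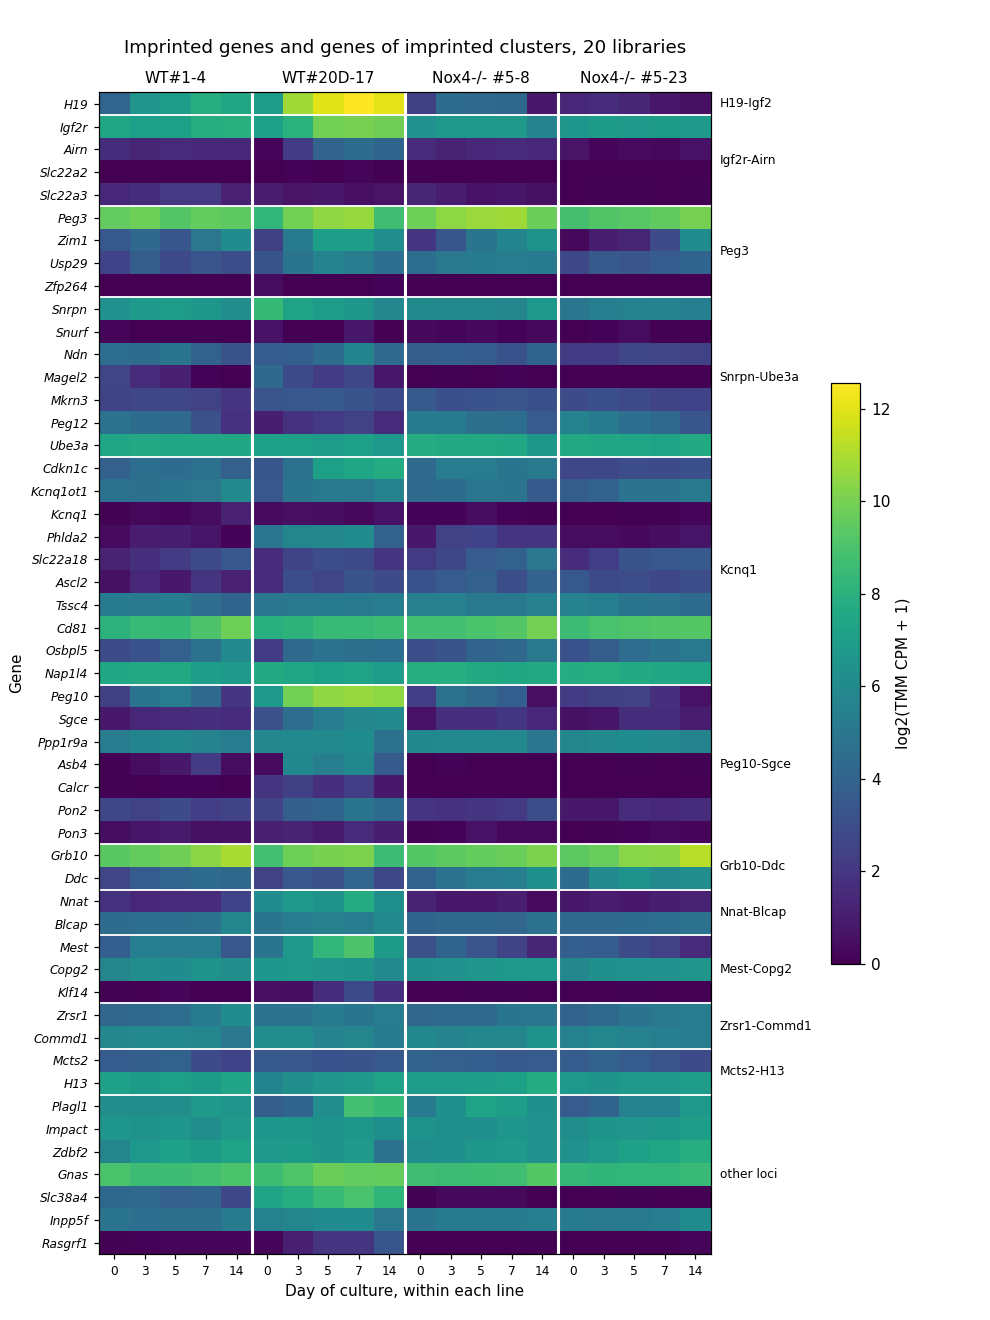
Heat map of log2(TMM CPM + 1) for the 51 members (rows, grouped by imprinted cluster) in the 20 libraries (columns, 4 lines with days 0, 3, 5, 7 and 14 from left to right within each line). H19, Slc38a4, Peg10, Nnat and Mest are brightest in the WT#20D-17 columns, whereas Peg3, Ube3a, Gnas and Grb10 are at a high level in all 4 lines.

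H19, the maternally expressed noncoding RNA of the H19-Igf2 cluster (chr7:142575529-142578143, minus strand), had the widest range of all members over lines, 10.44 log2 units. Its level in day order was 16.1, 92.4, 132, 224 and 179 CPM in WT#1-4 and 120.5, 1754, 3941, 6049.7 and 4216 CPM in WT#20D-17. In the knockout lines it was 4.15, 20.8, 19.3, 18.1 and 0.835 CPM (#5-8) and 1.71, 2.06, 1.59, 0.755 and 0.474 CPM (#5-23). H19 thus lay above its day 0 level on every later day in both wild type lines, and was lower on day 14 than on day 0 in both knockout lines. Each library of Nox4-/- #5-23 lay below each library of the wild type lines. Igf2, the growth factor gene next to H19, is not a member. It reached 54.4 CPM in WT#1-4, 4705 CPM in WT#20D-17 and at most 3.77 CPM in the knockout lines.

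In the Igf2r cluster, Igf2r (chr17:12682406-12769664, minus strand) encodes the receptor that clears IGF2 and is expressed from the maternal copy, and Airn (chr17:12741311-12860136, plus strand) is the paternal noncoding RNA that overlaps it on the opposite strand and silences it in cis. Igf2r was at 169, 136, 139, 225 and 232 CPM in WT#1-4 and at 138, 261, 948, 1012 and 922 CPM in WT#20D-17. It stood at 81.3, 103, 107, 111 and 47.7 CPM in Nox4-/- #5-8 and at 96.0, 113, 112, 115 and 112 CPM in #5-23. All wild type libraries lay above all knockout libraries for Igf2r. Airn was at 2.16, 1.47, 1.83, 1.59 and 1.74 CPM in WT#1-4 and at 0.164, 3.70, 14.8, 20.6 and 15.4 CPM in WT#20D-17. The knockout lines had 1.84, 1.3, 1.64, 1.78 and 1.76 CPM (#5-8) and 0.558, 0.183, 0.302, 0.222 and 0.547 CPM (#5-23). Airn of #5-23 lay below that of #5-8 on every day, while Igf2r of the same libraries overlapped. Whether the strand was used in counting is not stated, so reads of this overlapping pair may be shared between them. Slc22a3, another organic cation transporter of the cluster, was at 1.19 to 3.28 CPM in WT#1-4, 0.444 to 0.984 CPM in WT#20D-17, 0.464 to 1.56 CPM in #5-8 and 0 to 0.0458 CPM in #5-23, where no library had more than 1 count.

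By number of members, the Peg10-Sgce cluster on chromosome 6 came first for levels highest in WT#20D-17, with 6 of its 7 members. The Snrpn-Ube3a cluster was close, with 5 of 7, as were the 7 loci with a single member, also with 5. Among all genes with a mean count of 10 or more, 39.3% were highest in that line. In the smaller H19-Igf2 and Nnat-Blcap clusters, 1 of 1 and 2 of 2 members were highest there. Peg10 (chr6:4747306-4760517, plus strand) is a paternally expressed gene derived from a retrotransposon and needed for the placenta. It was at 4.18, 27.8, 37.9, 18.8 and 3.02 CPM in WT#1-4 and 102, 933, 1435, 1576 and 1355 CPM in WT#20D-17. Knockout libraries held 4.03, 24.9, 19.2, 12.3 and 0.417 CPM (#5-8) and 3.49, 4.12, 4.54, 2.22 and 0.547 CPM (#5-23). On day 14 Peg10 was at 1355 CPM in WT#20D-17 and at most at 3.02 CPM in the other lines. Sgce (chr6:4674350-4747207, minus strand), which encodes epsilon-sarcoglycan and starts next to Peg10 on the other strand, was at 0.836, 1.75, 1.90, 2.20 and 1.98 CPM in WT#1-4 and 7.71, 21.7, 39.3, 55.2 and 58.3 CPM in WT#20D-17. In the knockouts Sgce was at 0.519, 2.35, 2.26, 3.13 and 1.67 CPM (#5-8) and 0.483, 0.642, 2.12, 2.13 and 0.911 CPM (#5-23), so WT#20D-17 lay above the other 15 libraries. Asb4 (chr6:5383386-5433022, plus strand), a maternally expressed ubiquitin ligase adaptor, was at 0.0380, 0.318, 0.820, 3.75 and 0.347 CPM in WT#1-4 and 0.287, 56.9, 40.4, 56.7 and 10.7 CPM in WT#20D-17. Its level was 0, 0.0839, 0, 0 and 0 CPM in #5-8 and 0, 0, 0.0378, 0 and 0.0365 CPM in #5-23. Asb4 therefore stayed at or under the floor in all knockout libraries. Pon2 (chr6:5264147-5298455, minus strand), a paraoxonase with antioxidant activity, was at 5.58, 4.45, 6.26, 3.79 and 5.06 CPM in WT#1-4 and 4.96, 13, 15.3, 27.5 and 19.9 CPM in WT#20D-17. In the knockouts it was at 2.67, 2.48, 2.87, 3.42 and 6.86 CPM (#5-8) and 0.818, 0.779, 2.00, 1.60 and 2.08 CPM (#5-23), and #5-23 lay below #5-8 throughout. Calcr, the calcitonin receptor, was at 0.787 to 4.13 CPM in WT#20D-17, at most 0.0758 CPM in WT#1-4 and 0 in all 10 knockout libraries. Pon3, a second paraoxonase, stayed between 0 and 1.86 CPM everywhere. Ppp1r9a, which encodes the actin-binding neurabin, ranged over only 0.32 log2 units among lines.

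The Kcnq1 cluster holds 10 members. Cdkn1c (chr7:143458339-143461050, minus strand) encodes the cell cycle inhibitor p57. Its level was 13.4, 22.1, 20.2, 26.1 and 13.6 CPM in WT#1-4 and 9.14, 24.5, 141, 166 and 211 CPM in WT#20D-17. Nox4-/- #5-8 had 19, 39.0, 38.3, 28.5 and 32.8 CPM and #5-23 had 5.28, 5.68, 6.73, 6.62 and 7.29 CPM. Cdkn1c of #5-23 lay below that of every library of the other lines. Phlda2 (chr7:143501545-143503150, minus strand), which restrains placental growth, was at 0.304, 0.993, 1.04, 0.645 and 0.0992 CPM in WT#1-4 and 29.6, 52.1, 55.3, 64.7 and 13.8 CPM in WT#20D-17. It was at 0.759, 4.66, 4.78, 2.65 and 2.78 CPM in #5-8 and 0.335, 0.321, 0.265, 0.40 and 0.656 CPM in #5-23. WT#20D-17 lay above all other libraries for Phlda2, and WT#1-4 overlapped #5-23. The noncoding RNA Kcnq1ot1, which silences genes of the cluster on the paternal copy, ranged over 0.60 log2 units among lines, from 9.55 to 59.0 CPM. Kcnq1, the potassium channel gene it overlaps, was at most at 1.19 CPM. Ascl2, a transcription factor of the trophoblast and of stem cells, was at 0.494 to 2.69 CPM in WT#1-4, 2.01 to 8.52 CPM in WT#20D-17, 6.98 to 14.2 CPM in #5-8 and 5.64 to 10.0 CPM in #5-23. Tssc4, Cd81, Osbpl5 and Nap1l4, at the edges of the cluster, ranged over 0.48, 0.85, 0.50 and 0.42 log2 units.

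In the Snrpn-Ube3a cluster, known from Prader-Willi and Angelman syndromes, the paternally expressed genes Magel2 and Peg12 went in opposite directions between the wild type lines by their means over days. The Magel2 levels of the 2 lines overlapped. In the exact test described below only Peg12 of the cluster passed between these lines (17.7% of all genes did). With the day as a block 0 of the 7 members passed (13.1%). Magel2 (chr7:62377010-62381640, plus strand), a regulator of ubiquitin ligases and endosomal traffic, was at 5.17, 2.07, 1.12, 0.0758 and 0 CPM in WT#1-4 and 17.9, 6.03, 3.49, 5.42 and 0.735 CPM in WT#20D-17. It was at 0, 0.0420, 0, 0.0963 and 0 CPM in #5-8 and at 0 in all libraries of #5-23. Peg12 (chr7:62461871-62464510, minus strand), an inhibitor of the kinase GSK3, was at 26.6, 20.7, 18.9, 7.62 and 2.48 CPM in WT#1-4 and 1.07, 2.54, 3.40, 4.48 and 1.84 CPM in WT#20D-17. The knockouts had 36.6, 36.3, 24.3, 22.0 and 11 CPM (#5-8) and 48.0, 36.8, 22.8, 19.2 and 9.26 CPM (#5-23). Peg12 was the only one of the 14 members with the widest ranges that was lowest in WT#20D-17 and highest in #5-23. Ndn, which encodes the growth suppressor necdin, was at 3.62 to 5.33 CPM in #5-23, below every other library. Snrpn, a splicing protein gene of the same locus, was at 54.9 to 335 CPM in WT#20D-17, 70.4 to 121 CPM in WT#1-4, 52.2 to 103 CPM in #5-8 and 29.9 to 45.9 CPM in #5-23. Snurf, which shares its transcript with Snrpn on the same strand, was given at most 17 counts, and the division of reads between them is an estimate. The ubiquitin ligase genes Mkrn3 and Ube3a ranged over 0.80 and 0.52 log2 units. In the Peg3 cluster, the zinc finger gene Peg3 was at 317 to 1761 CPM over all 20 libraries with a range over lines of 0.94 log2 units, and its neighbours Zim1 and Usp29 are described with the time course.

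Slc38a4 (chr15:96994820-97055956, minus strand), a paternally expressed amino acid transporter of placenta and liver, had the widest range over lines of any protein-coding member, 8.25 log2 units. It was at 17.7, 18.4, 13.2, 15.2 and 5.70 CPM in WT#1-4 and 163, 227, 348, 491 and 293 CPM in WT#20D-17. Nox4-/- #5-8 had 0.0399, 0.252, 0.268, 0.193 and 0 CPM and #5-23 had 0, 0, 0.0378, 0 and 0 CPM. The 3 levels did not overlap, with WT#20D-17 highest, WT#1-4 between and the knockout lines at no more than 0.268 CPM. Nnat (chr2:157560078-157562522, plus strand), the paternally expressed neuronatin gene, was at 2.62, 1.63, 1.94, 1.97 and 4.86 CPM in WT#1-4 and 66.4, 106, 84.3, 209 and 75.0 CPM in WT#20D-17. The levels were 1.28, 0.755, 0.803, 1.06 and 0.278 CPM in #5-8 and 0.743, 0.962, 0.832, 1.11 and 1.28 CPM in #5-23. Nnat showed the same order of groups without overlap, while Blcap, the gene whose intron surrounds it, ranged over 1.10 log2 units. Mest (chr6:30723547-30748465, plus strand), a paternally expressed mesoderm gene, was at 12.3, 42.0, 38.4, 38.2 and 9.47 CPM in WT#1-4 and 27.3, 103, 312, 523 and 115 CPM in WT#20D-17. In #5-8 and #5-23 it was at 7.74, 15.4, 9.10, 4.96 and 1.53 CPM and at 12.4, 11.5, 6.69, 4.40 and 1.82 CPM. Mest ended below its day 0 level in WT#1-4 and in both knockout lines, and above it in WT#20D-17. Its neighbours were Copg2, a coat protein gene that overlaps its end, with a range of 0.37 log2 units, and the transcription factor gene Klf14, at 0.388 to 6.08 CPM in WT#20D-17 and at most 0.112 CPM elsewhere. Rasgrf1, a Ras exchange factor, reached 9.39 CPM in WT#20D-17 and at most 0.149 CPM elsewhere. Of the remaining members, Gnas, the G protein subunit gene, ranged over 1.06 log2 units among lines, and Impact, Zdbf2, Inpp5f, Grb10, Zrsr1, Commd1, Mcts2 and H13 ranged over 0.23 to 0.92.

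**Figure D2:**
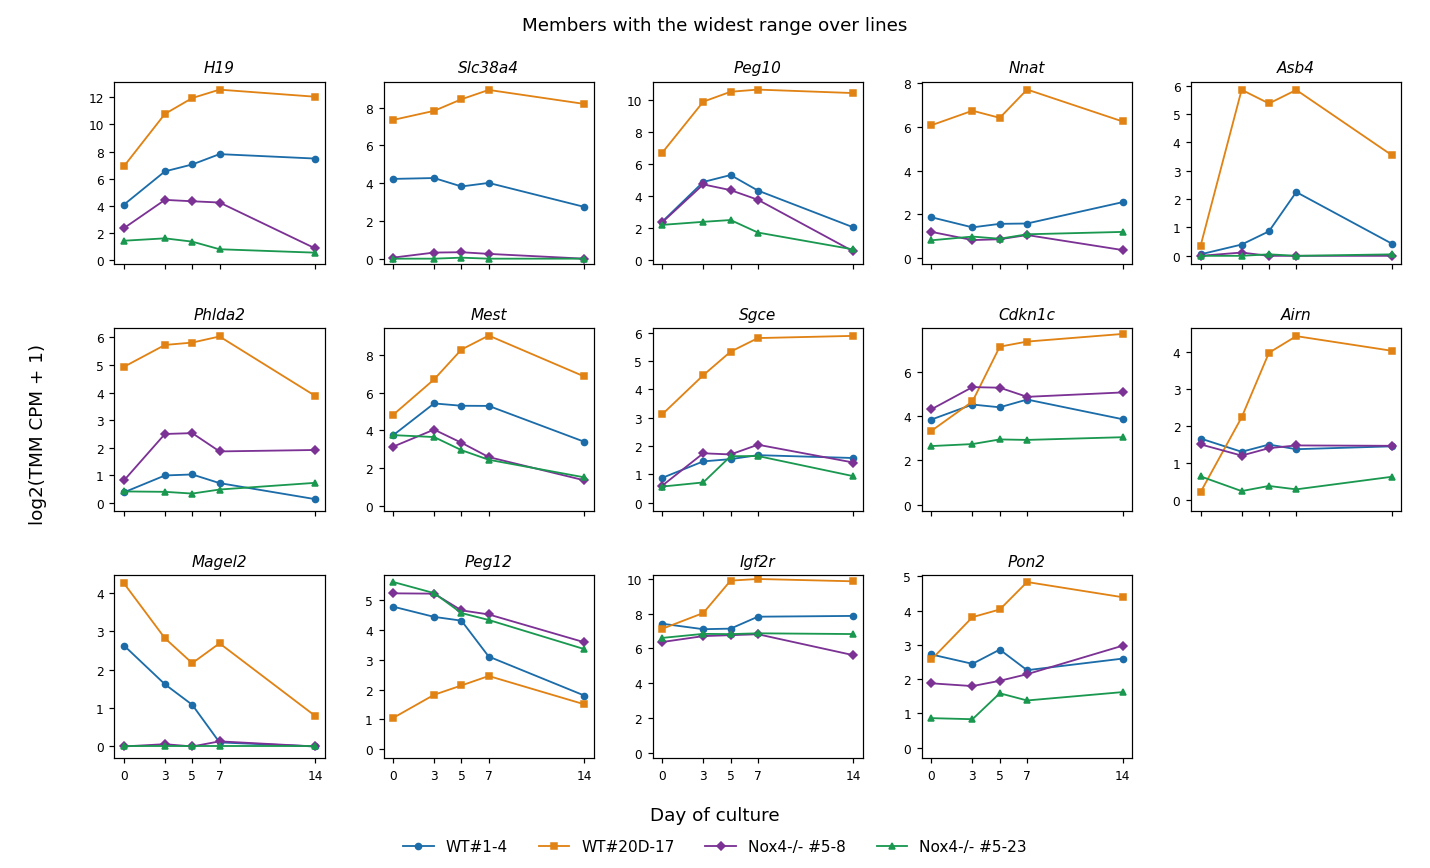
Level on the log2(TMM CPM + 1) scale against the day of culture for the 14 members with the widest range over lines, 1 point per library and 1 line of points per iPSC line. WT#20D-17 lies on top in 13 of 14 panels for its mean over days, the exception being Peg12, and the knockout lines lie near 0 for Slc38a4, Asb4 and Magel2.

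The first comparison asked which members differed between WT#1-4, the wild type line of the study's text, and the 2 knockout lines with all days pooled. By edgeR's exact test at a Benjamini-Hochberg adjusted p under 0.01, 11 of 51 members passed, 2 higher and 9 lower in the knockout lines. The background was 5.62% of the 33860 genes tested, with 1.65% higher and 3.97% lower. Where the mean count was 10 or more it was 11 of 47 members, against 9.33% of genes. The 2 higher members were Ascl2, 6.51-fold (log2 fold change 2.70, adjusted p = 1.76e-08), and Ddc, the decarboxylase that makes dopamine and serotonin, 3.52-fold (1.81, adjusted p = 0.000703). Slc38a4 was 168-fold lower in the knockout lines (log2 fold change -7.39, adjusted p = 1.75e-25) and H19 18.4-fold lower (-4.20, adjusted p = 5.60e-06). Mest (-1.90), Nnat (-1.51), Pon3 (-1.95), Igf2r (-0.85) and Snrpn (-0.83) were lower with adjusted p of 0.000633 to 0.00863. Magel2 and Asb4 had 3 and 4 counts in all knockout libraries together. Their ratios of summed CPM were therefore given with 95% counting intervals, 142 (48.1 to 696) for Magel2 and 66.5 (25.4 to 248) for Asb4, higher in WT#1-4. Slc38a4, Igf2r and Nnat, lower in the knockouts, and Ascl2, higher, were the 4 members whose groups did not overlap, against 5.34% of 20687 genes with 10 counts in some library. The median log2 fold change was -0.10 over the members and 0 over all genes. Days of 1 clone are not independent, yet they enter this test as replicates, and its p-values measure the spread over days and over the 2 knockout clones. With the day as a block in the quasi-likelihood test, 17 members passed (5 higher, 12 lower, beside 2.82% and 5.23% of genes, 8.04% in all), the same 11 and in addition Slc22a18 (1.13), Usp29 (1.52) and Peg12 (0.99) higher, and Slc22a3 (-2.48), Ndn (-1.14) and Peg10 (-1.36) lower. Of other lists, 6 of 10 fibroblast, 3 of 8 cardiac and muscle, 2 of 10 trophoblast and 2 of 8 visceral endoderm markers passed the exact test, each lower in the knockout lines, and 2 of 8 pluripotency markers, 1 in each direction, and 1 of 8 neural markers did, or 2 of 8 with the block. Their part in the members' differences was not tested. Without day 5, or without day 7, 7 members passed the exact test (3.74% and 3.29% of genes), and Slc38a4, H19, Ascl2, Asb4 and Magel2 were the 5 that passed whichever day or knockout line was left out.

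Set against the same 10 knockout libraries, WT#20D-17 differed in more members. In the exact test 25 of 51 passed, 3 higher and 22 lower in the knockout lines, beside a background of 25.8% of all genes tested (9.83% higher and 16% lower). At a mean count of 10 or more it was 24 of 47 members, against 39.8% of genes. Members higher in the knockouts were Peg12 (log2 fold change 3.32, adjusted p = 1.36e-11), Ddc (2.52, adjusted p = 1.85e-07) and the tetraspanin gene Cd81 (0.76, adjusted p = 0.00291). The lower members included Slc38a4 (-11.83), H19 (-8.85), Peg10 (-7.15), Nnat (-6.88), Mest (-4.84), Phlda2 (-4.61), Sgce (-4.49), Airn (-3.42), Igf2r (-2.72), Pon2 (-2.66) and Cdkn1c (-2.55), with adjusted p of 0.000138 or less. Calcr, at 0 in every knockout library, was at least 22.4-fold higher in WT#20D-17, taking 3 counts per library as the floor. The ratio of summed CPM was 2020 (95% counting interval 788 to 7418) for Asb4, 572 (195 to 2777) for Magel2 and 180 (61.0 to 880) for Klf14. The groups did not overlap for 15 members, 14 lower and 1 higher in the knockout lines, beside 24.3% of genes. The members' median log2 fold change was -0.82, or -0.72 with near-absent genes set to their bounds, against -0.02 over all genes. With the day as a block 25 members passed, 3 higher and 22 lower (background 25.5%, with 10.3% and 15.2%), and 19 members passed the exact test whichever day or knockout line was left out, the others being Cd81, Cdkn1c, Gnas, Kcnq1, Ndn and Snrpn. Markers of several cell types moved with this comparison. Lower in the knockout lines were 8 of 8 visceral endoderm, 10 of 10 trophoblast, 7 of 8 cardiac and muscle, 6 of 10 fibroblast and 6 of 8 pluripotency markers, and 1 pluripotency marker, Pou5f1, was higher. Neural markers passed in 6 of 8, with 3 in each direction. Their part in the members' differences was not tested. Because the share of all genes past the threshold was so large, the share of members is read against it and not against 0. Both comparisons use the same knockout libraries and are not independent.

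The 2 lines labelled wild type were then compared with each other. Between WT#20D-17 and WT#1-4, 20 of 51 members passed the exact test, 18 higher and 2 lower in WT#20D-17, with a background of 17.7% (9.96% higher and 7.78% lower). Restricted to a mean count of 10 or more, 20 of 47 members and 28.3% of genes passed. Phlda2 (log2 fold change 6.09, adjusted p = 2.76e-18), Peg10 (5.87, adjusted p = 5.58e-10), Nnat (5.36, adjusted p = 5.21e-27), H19 (4.63, adjusted p = 2.12e-06), Slc38a4 (4.42, adjusted p = 1.99e-23) and Sgce (4.37, adjusted p = 4.85e-13) were among those higher. For genes near the floor in WT#1-4 the ratio of summed CPM was 71.5 (30.3 to 222) for Calcr, 69.6 (26.8 to 257) for Klf14 and 30.8 (17.4 to 60.2) for Rasgrf1. Slc22a3 (-1.76, adjusted p = 0.00116) and Peg12 (-2.54, adjusted p = 0.000474) were lower. In 10 members the lines did not overlap, 8 higher and 2 lower, beside 26.7% of genes. With the day as a block 13 members passed, all higher in WT#20D-17 (background 13.1%, with 7.29% higher and 5.84% lower), and Peg12 and Slc22a3 no longer did. At a mean count of 10 or more these were 13 of 47 members against 24.2% of genes, a share close to the background. Without day 3 there were 13 (12.8% of genes) and without day 5 there were 11 (12.5%) in the exact test, and 10 passed whichever day was left out, H19, Slc38a4, Peg10, Sgce, Calcr, Phlda2, Nnat, Mest, Klf14 and Rasgrf1. Marker lists moved with this comparison. Higher in WT#20D-17 were 8 of 8 visceral endoderm, 6 of 8 cardiac and muscle, 6 of 8 pluripotency and 5 of 10 trophoblast markers, and Pou5f1 was lower. Fibroblast markers passed in 7 of 10, 5 higher and 2 lower, and neural markers in 6 of 8, with 3 in each direction. In the blocked test 1 of 10 fibroblast, 2 of 10 trophoblast, 4 of 8 neural and 6 of 8 pluripotency markers passed, and the other lists kept their counts. The part of these cell types in the members' differences was not tested.

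The 2 knockout lines differed from each other in 7 of 51 members in the exact test, all lower in Nox4-/- #5-23, while 2.19% of all genes passed, 1.05% higher and 1.14% lower. All 7 were among the 47 members with a mean count of 10 or more, where 4.06% of genes passed. They were Cdkn1c (log2 fold change -2.32, adjusted p = 3.45e-15), Usp29 (-1.64, adjusted p = 5.15e-06), Airn (-2.16, adjusted p = 1.64e-05), Phlda2 (-2.96, adjusted p = 1.82e-05), Ndn (-1.42, adjusted p = 9.15e-05), H19 (-3.26, adjusted p = 0.0012) and Slc22a3. For Slc22a3, with 3 counts in all libraries of #5-23, the ratio of summed CPM was 35.9 (11.9 to 177). They lay in 5 clusters, and 6 of them did not overlap between the lines, H19 being the exception. In all, 9 members did not overlap, each lower in #5-23, beside 7.19% of genes. With the day as a block 16 members passed (background 6.31%, with 3.52% higher and 2.78% lower), of which 3 were higher in #5-23, Grb10 (0.56), Ddc (0.67) and Zdbf2 (0.68). Cdkn1c, Phlda2, Slc22a3 and Usp29 passed the exact test whichever day was left out, Airn not without day 7, Ndn not without day 3 and H19 not without day 3, 5 or 7. In the blocked test the 13 lower members included Zim1 (-2.67), Peg10 (-1.62), Plagl1 (-1.38), Pon2 (-1.33), Peg3 (-0.93) and Snrpn (-0.68). None of the 8 visceral endoderm markers exceeded 3 counts in either line, and 0 of 8 pluripotency markers passed the exact test. Of the neural markers 2 of 8 passed and of the fibroblast markers 1 of 10, all lower in #5-23. In the blocked test 2 of 8 pluripotency markers passed, 1 in each direction, and 3 of 8 neural, 2 of 10 fibroblast and 1 of 8 cardiac and muscle markers did, each lower in #5-23. Their part was not tested.

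**Figure D3:**
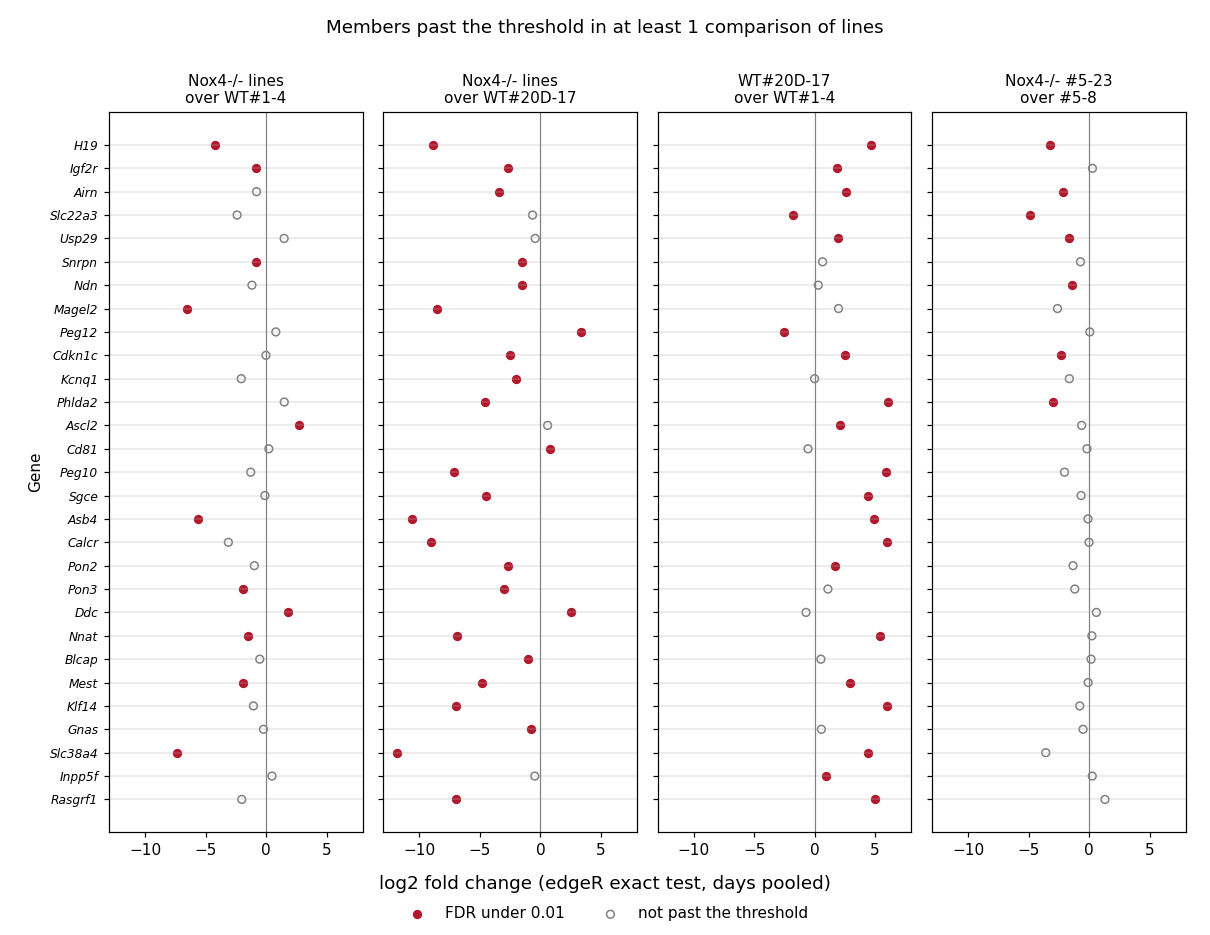
Log2 fold change (horizontal axis) of the 29 members that passed the exact test in at least 1 of the 4 comparisons of lines, 1 panel per comparison, filled where the adjusted p was under 0.01. Filled points lie mostly to the left where the knockout lines are compared with either wild type line, mostly to the right for WT#20D-17 over WT#1-4, and only to the left for Nox4-/- #5-23 over #5-8, and each comparison shares libraries with others.

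With the line as the unit, the counts of each line were summed over days and 2 wild type lines were compared with 2 knockout lines. No member passed in edgeR's quasi-likelihood test, and 0 of the 20229 genes tested did (0%). At an unadjusted p under 0.05 there were 11 of the 47 members tested, beside 8.05% of genes. The smallest p was that of Ddc, higher in the knockout lines by 2.14 ± 0.42 log2 units (SE, 2 lines per genotype, adjusted p = 0.604). Slc38a4 had a log2 fold change of -10.91 ± 2.55 (adjusted p = 0.604) and H19 one of -7.83 ± 2.41 (adjusted p = 0.604), both SE from the same test. On the line sums, edgeR's exact test called 3 members, Slc38a4, Asb4 and Magel2, beside 0.613% of genes, and the Wald test of DESeq2 called 9, beside 2.4% of genes. Without WT#1-4 the quasi-likelihood test called 3, Asb4, Mest and Nnat, and 0.794% of genes, where the lone wild type line is assumed to vary like the knockout lines.

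The time course was asked over all 4 lines, with the lines as replicates of a day. In the quasi-likelihood test 1 of the 47 members tested changed, Osbpl5, against 3.61% of 17827 genes (1.34% higher and 2.28% lower on day 14), and 8 members (of 47) had an unadjusted p under 0.05, beside 19.4% of genes. Osbpl5 (chr7:143688762-143756985, minus strand), an oxysterol-binding protein gene of the Kcnq1 cluster, was at 6.23, 8.10, 13.4, 24.8 and 62.2 CPM in WT#1-4 and 3.61, 18.5, 27.0, 23.7 and 22.5 CPM in WT#20D-17. It was at 7.07, 8.56, 14.8, 18.1 and 31.3 CPM in #5-8 and 7.99, 11.8, 21.4, 26.3 and 31.6 CPM in #5-23. On day 14 it was higher than on day 0 by 2.58 ± 0.38 log2 units (SE, adjusted p over the days = 0.00207), with a rise in 4 of 4 lines. Since the same clone was followed over days, the line was also entered as a block, and 10 members then passed, all higher on day 14 (background 18%, with 9.45% higher and 8.52% lower, and 19.3% in all at a mean count of 10 or more). The members' share is close to the background. Besides Osbpl5 they were Zim1, Slc22a18, Ddc, Zrsr1, Cd81, Blcap, Sgce, Rasgrf1 and Asb4, of which the last 3 had a day 14 minus day 0 difference above 1 on the log2(CPM + 1) scale only in WT#20D-17. Leaving out 1 line at a time, 4 members passed the blocked test without WT#1-4 (8% of genes), 11 without WT#20D-17, 8 higher and 3 lower on day 14 (23.4% of genes), and 1 without either knockout line (5.98% without #5-8 and 3.44% without #5-23). Of the cell type markers 0 passed over days without the block, while with it 3 of 8 visceral endoderm, 2 of 6 trophoblast and 2 of 6 cardiac and muscle markers were higher on day 14 and 1 of 6 neural markers was lower, and their part was not tested. Leaving out lines in the same order with no block, the members' counts were 0 (0.028% of genes), 3 (9.26%) and 0 (0% and 0.033%).

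Zim1 (chr7:6671269-6696450, minus strand), a maternally expressed zinc finger gene of the Peg3 cluster, had the widest range over days. Its levels were 10.0, 17.1, 9.40, 30.1 and 66.0 CPM in WT#1-4 and 4.18, 36.3, 125, 131 and 69.8 CPM in WT#20D-17. The knockout lines had 2.99, 9.23, 27.8, 49.8 and 84.5 CPM (#5-8) and 0.260, 1.05, 1.44, 6.66 and 65.6 CPM (#5-23). All 4 lines converged on 65.6 to 84.5 CPM on day 14, from 0.260 to 10.0 CPM on day 0. The blocked estimate was 4.98 ± 0.92 log2 units (SE, adjusted p over the days = 0.00297). Usp29 (chr7:6730578-6967219, plus strand), a deubiquitinase gene of the same cluster, was at 4.71, 11.8, 5.89, 8.84 and 6.99 CPM in WT#1-4 and 8.48, 27.3, 47.9, 38.8 and 22.9 CPM in WT#20D-17. It was at 22.3, 32.2, 34.4, 37.8 and 36.3 CPM in #5-8 and 5.65, 10.3, 8.92, 11.6 and 15.8 CPM in #5-23, and did not pass the test over days. Plagl1 (chr10:13060504-13131694, plus strand), a paternally expressed zinc finger regulator of other imprinted genes, was at 72.4, 72.0, 71.9, 109 and 92.0 CPM in WT#1-4 and 12.1, 15.6, 71.0, 444 and 337 CPM in WT#20D-17. Its levels in the knockouts were 34.4, 77.7, 153, 128 and 78.7 CPM (#5-8) and 11.1, 15.8, 44.8, 45.2 and 103 CPM (#5-23). Plagl1 was higher on day 14 than on day 0 in 4 of 4 lines, by 0.34 to 4.69 units on the log2(CPM + 1) scale, and did not pass the test over days.

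Slc22a18 (chr7:143473736-143499334, plus strand), a maternally expressed transporter gene of the Kcnq1 cluster, was at 1.33, 2.22, 3.62, 5.88 and 9.67 CPM in WT#1-4 and 2.05, 4.91, 6.80, 5.95 and 2.78 CPM in WT#20D-17. It was at 3.43, 5.50, 11, 13.8 and 30.8 CPM in #5-8 and 2.01, 3.99, 8.58, 9.81 and 10.3 CPM in #5-23. The blocked estimate for day 14 over day 0 was 2.44 ± 0.40 log2 units (SE, adjusted p over the days = 0.00172), with the smallest rise in WT#20D-17. Ddc (chr11:11814101-11898144, minus strand) was at 5.13, 11.6, 16.4, 20.1 and 18.1 CPM in WT#1-4 and 4.59, 9.65, 7.76, 16.2 and 5.51 CPM in WT#20D-17. Levels of 15.2, 27.0, 37.9, 40.5 and 78.5 CPM and 21.0, 61.3, 85.7, 63.8 and 70.8 CPM were measured in #5-8 and #5-23. Every line had its lowest Ddc on day 0, and on each day both knockout lines lay above both wild type lines. Zrsr1 (chr11:22972005-22976496, plus strand), a splicing factor retrogene within Commd1, was at 16.8, 18.9, 21.7, 35.4 and 66.7 CPM in WT#1-4 and 26.3, 26.2, 34.2, 28.1 and 38.3 CPM in WT#20D-17. It was at 16.5, 18.4, 18.9, 28.9 and 30 CPM in #5-8 and 15.0, 18.9, 26.7, 32.1 and 38.5 CPM in #5-23. Cd81 (chr7:143052739-143067934, plus strand) was at 265, 365, 340.3, 536 and 879 CPM in WT#1-4 and 239.8, 280.2, 366, 348 and 406 CPM in WT#20D-17. Its knockout levels were 440.1, 447, 516, 585 and 963 CPM (#5-8) and 387, 489.9, 556, 589 and 598 CPM (#5-23). Both genes ended above their day 0 level in 4 of 4 lines, with blocked estimates of 1.23 ± 0.23 log2 units for Zrsr1 (SE, adjusted p = 0.00255) and 1.10 ± 0.19 for Cd81 (SE, adjusted p = 0.00181).

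**Figure D4:**
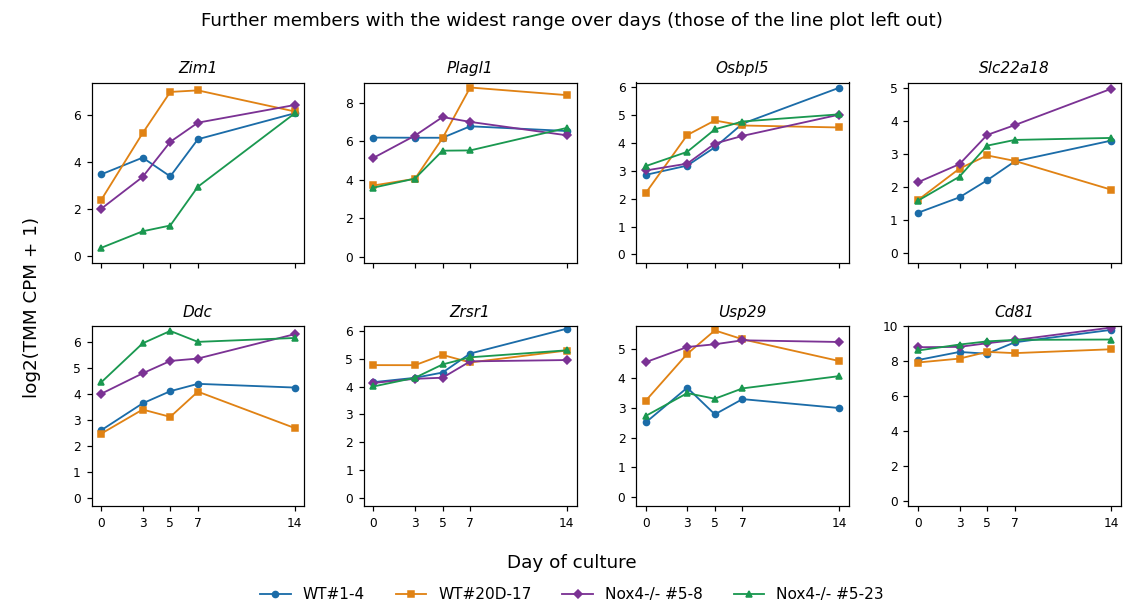
Level on the log2(TMM CPM + 1) scale against the day of culture for the 8 further members with the widest range over days, 1 point per library and 1 line of points per iPSC line. Zim1 and Osbpl5 are higher on day 14 than on day 0 in all 4 lines, and Ddc of both knockout lines lies above that of both wild type lines on every day.

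Whether the course over days differed between genotypes was tested as an interaction of genotype and day. No member passed in the quasi-likelihood test, 0 of 49 tested, and 0 of 19240 genes did (0%), with 0 members and 1.36% of genes at an unadjusted p under 0.05. With the line as a block 0 members passed, 6 of 49 had an unadjusted p under 0.05 beside 7.23% of genes, and 2 of all genes passed (0.0104%). DESeq2's likelihood ratio test called 0 members as well. The opposite day 14 changes of H19 in the 2 genotypes, listed above, were thus not past the threshold of this test, which has 2 clones per genotype.

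Of 18 factors that keep or erase imprints, 1 passed the exact test between WT#1-4 and the knockout lines (5.56%), close to the background of 5.62%. It was Zfp57, the zinc finger protein that recognises methylated control regions, at 63.1 to 132 CPM in WT#1-4 and 172 to 349.7 CPM in the knockout lines, and higher there. WT#20D-17 differed from the knockout lines in 7 of the 18 (38.9%, background 25.8%) and from WT#1-4 in 5 (27.8%, background 17.7%). The knockout lines differed from each other in 0 (background 2.19%). Of the 18, 15 to 17 exceeded 3 counts in some library of each line. At a mean count of 10 or more the backgrounds for WT#20D-17 were 39.8% and 28.3% in turn. The shares of factors are over all 18, with Ctcfl included, which was at most at 0.0820 CPM. They are therefore not on the same set of genes as these backgrounds, and neither an excess nor its absence is read from them. In the test blocked by day the 4 counts, in the same order of comparisons, were 1, 8, 7 and 0. These were 5.56%, 44.4%, 38.9% and 0% of factors, again with Ctcfl included. The share of genes at that mean count was 14.7%, 42.4%, 24.2% and 12.5%. The de novo methylation cofactor Dnmt3l was at 12.96 to 136 CPM in WT#20D-17 and did not exceed 3 counts in the other lines, and neither did Dppa3, a protector of maternal imprints, there. Dnmt3b, a de novo DNA methyltransferase, was at 42.8 to 725 CPM in WT#20D-17 and at most 17.4 CPM elsewhere. Over days 5 of 17 factors tested fell, beside 2.28% of genes lower on day 14, and 8 of 17 with the line as a block, beside 8.52%. Of the 7 neighbours that are no members, Igf2 and 6 Dlk1-Dio3 genes, 3 were lower in the knockout lines than in WT#1-4 (3.97% of genes were), and 6 with the day as a block (5.23%). Against WT#20D-17 3 were lower (16% of genes), also with the block (15.2%). Between the wild type lines 6 of the 7 passed, 3 higher and 3 lower in WT#20D-17 (9.96% and 7.78% of genes). With the block 4 did, 2 in each direction (7.29% and 5.84%). The knockout lines differed in 0 with or without the block (2.19% and 6.31% of genes). Over days 0 passed (3.61% of genes), and with the line as a block 1 did, higher on day 14 (18%). Meg3, the maternal noncoding RNA of the Dlk1-Dio3 locus, was at 16.4 to 25.4 CPM in WT#1-4 and 0.689 to 1.96 CPM in WT#20D-17, the reverse of the order seen for H19.

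For the members with the widest range over lines, the genes with the most similar levels over the 20 libraries were sought among 16517 genes by Spearman's rank correlation, as a description of libraries that share clones and days. H19 was most like the semaphorin receptor gene Plxnd1 (rho 0.971), Slc38a4 like Dhtkd1 and Pcdh1 (both 0.967), Igf2r like Serinc5 (0.965) and Peg10 like Gap43 (0.962). Peg12 was most like the transcription factor gene Etv4 (0.947), Mest like the myosin gene Myh10 (0.946), Sgce like Dse (0.949) and Phlda2 like Tppp (0.943). Airn had the weakest best match, Dsc2 (0.860), and Cdkn1c the next weakest, Kcnj2 (0.905). No other member was among the 3 most similar genes of any of these 14 members.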

How the data were processed

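Stranded mRNA libraries of 4 iPSC lines on 5 days were sequenced in paired-end mode by the authors, mapped with STAR 2.6.0c and quantified per gene with RSEM 1.3.1 on GRCm38. The authors deposited expected counts without normalization in 1 table. The protocol text lists day 10 where the sample titles and the study give day 14, and day 14 was used. Here the expected counts were rounded to whole numbers and analysed with R 4.3.3, edgeR 4.0.16 and DESeq2 1.42.0. RSEM divides reads that match several genes, so 10038 genes had values with decimals. No 2 libraries were identical. Annotation was GENCODE M21 of GRCm38, and promoters came from RefSeq on GRCm38.p6.

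Lines were compared by the exact test of edgeR with TMM factors on the 33860 genes with a nonzero count, days pooled, as in the study's methods. The quasi-likelihood test of edgeR, with its expression filter, served for the line as unit, the change over days, and the genotype-by-day interaction. Adjusted p-values are Benjamini-Hochberg over all genes tested, and the threshold was 0.01. Libraries on the same day come from the same clones as on other days. The difference between the 2 lines of a genotype correlated between days by 0.541 to 0.921 (wild type, 10 pairs of days) and 0.405 to 0.864 (knockout) over 16517 genes, so lines were taken as paired over days and blocked values are given where they change a count of members or move that of another list by over 1.5 times. The scripts were tested on simulated data. The members and all gene lists were chosen with earlier results of these data known. Values in every library are given for the 14 members with the largest range over lines of log2(mean CPM + 1) and the 8 further members with the largest range over days, among those with at least 10 counts in 1 or more libraries. Other members are named where they passed a test or in their cluster. Alternatives changed the test, the normalization, the filter, the pseudocount, the block, the wild type line, and left out each day or line. Counting intervals are at 95% and, like the floor, cover counting error only. Whether the labelled samples are separate cultures is not stated, so p-values measure the spread between these libraries.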

Additional observations from a re-analysis of the deposited data

Results flagged for a closer look

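Within a line, the 5 daily levels of a named member on the log2(CPM + 1) scale, and the 4 lines' changes from day 0 to day 14, were searched for a value far from the others by Dixon's gap ratio. Of 110 such sets 10 held one. A chance rate of about 1 in 20 holds for independent, normally distributed values. Successive days of 1 clone are not independent, so the 10 are not read against that rate. The gap ratio, which is the distance to the nearest value over the whole range, was 0.808 for Peg10 and 0.799 for Osbpl5, both lowest on day 0 in WT#20D-17 (102 and 3.61 CPM). In WT#1-4 it was 0.726 for Sgce, lowest on day 0 (0.836 CPM). In Nox4-/- #5-23 it was 0.825 for Igf2r (96.0 CPM) and 0.759 for Ddc (21.0 CPM), again lowest on day 0. Slc38a4 in Nox4-/- #5-23 on day 5 (0.0378 CPM) and Asb4 in Nox4-/- #5-8 on day 3 (0.0839 CPM) had a ratio of 1, being the only day with any count, 1 and 2 counts in turn. The change over days of WT#20D-17 stood above that of the other lines for Airn (3.81 log2 units, ratio 0.95), Asb4 (3.19, ratio 0.882) and Cdkn1c (4.39, ratio 0.8292).

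H19 was higher on day 14 than on day 0 in both wild type lines and lower in both knockout lines, so that the mean change of the wild type lines exceeded that of the knockout lines by 5.44 log2 units. Phlda2 went the other way, lower on day 14 in both wild type lines and higher in both knockout lines, a difference of -1.36 log2 units. In WT#1-4 this rested on 8 counts on day 0 and 2 on day 14, the latter under the floor of 3 counts. Nox4-/- #5-23 had 9 and 18 counts on these days, so the Phlda2 difference leans on values near the floor. The differences of H19 and Phlda2 were picked for their opposite signs and were not tested on their own. In the interaction test over all genes neither passed.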

How the results depend on the processing

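Of the gene values recomputed under another setting, 1583 kept their direction and side of the threshold, 57 passed only under the other setting, 55 passed only as reported, and 74 changed sign, 0 of them for a gene that passed as reported. Among the 74, 3 passed under the other setting. With both wild type lines in the fit, Phlda2 was lower in the knockout lines (-3.63, adjusted p = 0.00174). For the change over days, a replicate block by line without WT#20D-17 gave lower values on day 14 for Peg10 (-2.03, adjusted p = 0.00191) and Mest (-1.95, adjusted p = 0.00785). Under the replicate block the sign changed, without passing, for Plagl1 (-0.16), Slc22a18 (0.20) and Zrsr1 (0.11) between the wild type lines, Asb4 (0.16) and Peg12 (-0.022) between the knockout lines, Slc38a4 (-0.32), Phlda2 (0.33) and Mest (-1.19) over days and Peg12 (-0.44) and Usp29 (0.10) in the interaction. Leaving out 1 day or line gave 63 of the changes, and the log2 values of these genes then crossed 0. In the knockout lines against WT#1-4 they ran from -0.61 to 2.31 for Phlda2, -0.43 to 0.19 for Sgce, -1.56 to 0.72 for Cdkn1c, -0.79 to 0.38 for Zim1, -0.89 to 0.16 for Plagl1 and -0.53 to 0.16 for Osbpl5. Against WT#20D-17 they ran from -0.28 to 0.11 for Osbpl5 and -1.42 to 0.18 for Usp29. Between the wild type lines they ran from -0.59 to 0.44 for Osbpl5, -0.30 to 0.57 for Slc22a18 and -0.23 to 0.28 for Zrsr1. Between the knockout lines they ran from -0.10 to 0.56 for Nnat, -0.81 to 2.26 for Asb4, -0.34 to 0.15 for Mest, -0.079 to 0.12 for Peg12 and -0.21 to 0.024 for Cd81. With the line as the unit they ran from -5.69 to 1.49 for Phlda2, -1.50 to 0.022 for Zim1, -0.32 to 0.074 for Osbpl5 and -0.72 to 1.51 for Usp29. Over days they ran from -1.58 to 0.88 for Slc38a4, -2.03 to 3.65 for Peg10, -0.18 to 0.70 for Nnat, -1.05 to 1.33 for Phlda2, -1.95 to 1.40 for Mest and -0.15 to 2.76 for Airn. In the interaction they ran from -2.39 to 0.58 for Nnat, -1.89 to 0.026 for Sgce, -3.80 to 0.63 for Cdkn1c, -6.56 to 0.18 for Airn, -2.84 to 1.28 for Peg12, -0.65 to 1.41 for Pon2, -2.79 to 1.58 for Plagl1, -0.028 to 2.48 for Slc22a18, -0.94 to 0.59 for Zrsr1, -0.53 to 0.32 for Usp29 and -0.90 to 0.16 for Cd81. A pseudocount of 0.1 in place of 1 widened the range over lines to 11.47 for Slc38a4, 8.17 for Asb4, 6.85 for Nnat, 6.45 for Phlda2 and 6.09 log2 units for Magel2.

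The comparison of WT#1-4 with the knockout lines, 11 members as reported, gave 7 with the quasi-likelihood test without the day (3.63% of genes), 17 with the day as a replicate block, 21 with both wild type lines (12.1% of genes), and 7 to 14 leaving out 1 day or line. Against WT#20D-17 no setting moved the 25 members by more than 1.5 times (20 to 26 leaving out 1 day or line). Between the wild type lines the count of 20 became 13 with the replicate block and 11 to 19 leaving out 1 day, and between the knockout lines the count of 7 became 16 with the block and 5 to 9 leaving out 1 day. With the line as the unit, 0 members became 3 in the exact test, 9 in DESeq2's Wald test and 0 to 3 leaving out 1 line. Over days, 1 member became 10 under the replicate block by line, 4 in DESeq2's likelihood ratio test (6.03% of genes), and 0 to 11 leaving out 1 line with or without the block. The interaction of genotype and day kept a count of 0 in each setting run. The cause of these shifts was not tested. Genotype rests on 2 clones each, overlapping genes share estimated reads, and levels near the floor of 0.108 to 0.148 CPM cannot be ordered.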
